A study of Saccharomyces cerevisiae with 22 samples.

Results

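Mitochondrial ribosomal proteins of budding yeast are described here through the transcription start sites of their nuclear genes. The members are the genes whose standard name in the R64 reference begins with MRPL, MRPS, MRP or RSM followed by a digit. Of 67 such genes, 63 had a start cluster among the 3872 genes named in the tables, and MRPL25, MRPL39, MRP49 and MRPS28 had none and were not analysed here. Each gene is represented by its cluster with the highest mean normalized count in wild type. The name rule used no measured response. By the subunit names that the reference gives as synonyms (RSM22 by its gene name), 35 members belong to the large subunit and 27 to the small subunit. The remaining member, MRP8, has no subunit name and is known as a protein of unknown function first named from its sequence as a mitochondrial ribosomal protein; it is kept because the name rule takes it in.

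The mitochondrial ribosome translates the few messenger RNAs of the mitochondrial genome, which encode core subunits of the respiratory chain and of ATP synthase. Nearly all of its proteins are encoded in the nucleus, made by cytosolic ribosomes and imported. In the newer names, u marks proteins shared by ribosomes of all domains of life, b those shared with bacteria and m those found in mitochondria. Among the members with such a name 26 were u, 13 were b and 22 were m proteins.

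The libraries were made by TL-seq, which captures the 5′ ends of capped, polyadenylated RNA, so that a gene's tags mark where its transcripts begin. The strains are W303. The mutants carry a deletion of SWI3 complemented with integrated swi3-E815X, or a deletion of SNF2 complemented with integrated snf2-W935R or snf2-Q928K. The wild-type strains carry the same deletions complemented with SWI3 or SNF2, so that every strain, wild type included, has an integrated copy marked with LEU2 in place of the native gene. Swi/Snf moves and evicts nucleosomes; Snf2 is its ATPase and Swi3 one of its scaffold proteins. Cultures grown in YPD were split, and 1 flask received 5 mM dithiothreitol (DTT), a reducing agent that causes protein misfolding in the endoplasmic reticulum, for 1 h while the other stayed untreated. Each of the 10 groups has 2 replicates from separate days, and 2 wild-type libraries without the decapping enzyme Cap-Clip were taken to have entered no comparison.

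The values are those of 7 comparison tables, each with 5195 start clusters. A cluster was called at an adjusted p under 0.05 in the authors' DESeq2 Wald test, adjusted by the Benjamini-Hochberg method over all clusters. Errors are the authors' standard errors (SE), and values per library and depth are unknown. The mean of each arm was computed from the deposited mean and fold change and is given in normalized counts, comparable only within a table. All values are relative to the other transcripts of the same libraries. The wild-type means of both snf2 mutants were the same to a robust SD of 0.00092 log2 units untreated and 0.0012 with DTT, so these tables share their wild-type libraries, and the swi3 tables have others. The SNF2 and SWI3 clusters were called in none of the tables. SNF2 was low, at 22.1 to 76.3 mean normalized counts with SEs of 0.67 to 0.83. A 2-fold change of SNF2 was therefore not excluded in any comparison.

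The promoters of the 5 members that were called in any table are shown together with that of MRPL22, the member with the highest count. Each sequence is the 150 bases just before the start cluster, 5′ to 3′ on the coding strand, from the R64 reference. The regions are chrXI:178301-178450 (plus strand) for MRP8, chrX:246261-246410 (plus) for MRPL49, chrIV:936324-936473 (plus) for MRPL7, chrII:535039-535188 (plus) for MRPS9, chrIV:98264-98413 (plus) for MRPL11 and chrXIV:304668-304817 (minus) for MRPL22. None of them overlaps the coding sequence of another gene. Capitals mark matches on either strand to the 7 motifs described below the sequences.

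MRP8: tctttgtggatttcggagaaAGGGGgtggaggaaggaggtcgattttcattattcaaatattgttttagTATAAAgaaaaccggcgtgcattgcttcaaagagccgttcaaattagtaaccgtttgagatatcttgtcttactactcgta
MRPL49: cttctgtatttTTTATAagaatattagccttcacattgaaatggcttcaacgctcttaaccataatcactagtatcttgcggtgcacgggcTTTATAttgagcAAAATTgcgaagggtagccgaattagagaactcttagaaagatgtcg
MRPL7: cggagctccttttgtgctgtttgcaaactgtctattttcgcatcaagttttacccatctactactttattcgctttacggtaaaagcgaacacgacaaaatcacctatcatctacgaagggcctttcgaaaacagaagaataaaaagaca
MRPS9: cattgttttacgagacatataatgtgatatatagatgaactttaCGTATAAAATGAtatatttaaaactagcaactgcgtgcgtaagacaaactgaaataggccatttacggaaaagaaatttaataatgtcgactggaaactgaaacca
MRPL11: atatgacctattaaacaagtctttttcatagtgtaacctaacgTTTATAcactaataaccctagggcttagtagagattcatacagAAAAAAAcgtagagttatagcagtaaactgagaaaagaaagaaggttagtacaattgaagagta
MRPL22: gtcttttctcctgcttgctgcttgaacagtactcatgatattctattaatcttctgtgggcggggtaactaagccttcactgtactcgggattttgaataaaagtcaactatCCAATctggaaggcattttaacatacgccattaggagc

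The motifs searched were AATTTT, an element known from promoters of cytosolic ribosome genes, TCA and ACG with 6 bases of any kind between them for the factor Abf1, TTACCCG for the factor Reb1, CCAAT for the Hap complex that activates respiratory genes, AGGGG for the general stress factors Msn2 and Msn4, TATAAA as a TATA box core, and AAAAAAA as an A tract. Matches of different motifs may overlap. AATTTT was found before 16 of 63 members (25.4%) and 42.7% of 131 cytosolic ribosomal protein genes. Over all genes the share was 40.4% of 3738 windows, where genes that share a main cluster count once. The Abf1 letters were found before 23.8% of members, against 14.6% of all genes and 6.87% of cytosolic ribosomal protein genes. The Reb1 letters were found before 12.7% of members, 9.1% of all genes and 3.05% of cytosolic ribosomal protein genes. Among the members these were MRP10, RSM10, MRPL3, MRPS17, MRPL10, MRPL19, MRPS12 and MRPL23. The CCAAT letters were as frequent before members (22.2%) as before all genes (21.1%), and so was TATAAA (28.6% and 28.7%). The A tract was found before 30.2% of members, 41.8% of all genes and 26.7% of cytosolic ribosomal protein genes. The median GC content was 34.7%, 35.3% and 38.7% in that order. AGGGG was found before 2 members (3.17%), MRP8 and MRPS16, against 13.3% of all genes and 6.11% of cytosolic ribosomal protein genes. In MRP8 it begins 130 bases before the cluster, followed by a TATAAA 81 bases before it. In MRPS9 the Abf1 letters and a TATAAA overlap. In the MRPL7 window none of the 7 motifs was found. These shares describe letters and were not tested.

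The main clusters lay close to the coding starts. Of the 63 clusters, 58 had their midpoint upstream of the coding start, at a median of 40.5 bp, against 45.5 bp over all genes, and 55 of these lay within 100 bp. MRPL7 had the most distant one, at 134.5 bp, followed by RSM25 at 129 bp and MRPL19 at 100.5 bp. In MRP13, MRPL10, MRP35, MRPL3 and MRPS12 the midpoint lay inside the annotated coding region, by 53, 39.5, 29.5, 13.5 and 9 bp in that order. The clusters were 5 to 125 bp wide, with a median of 43 bp, against 44 bp over all genes.

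**Figure D1:**
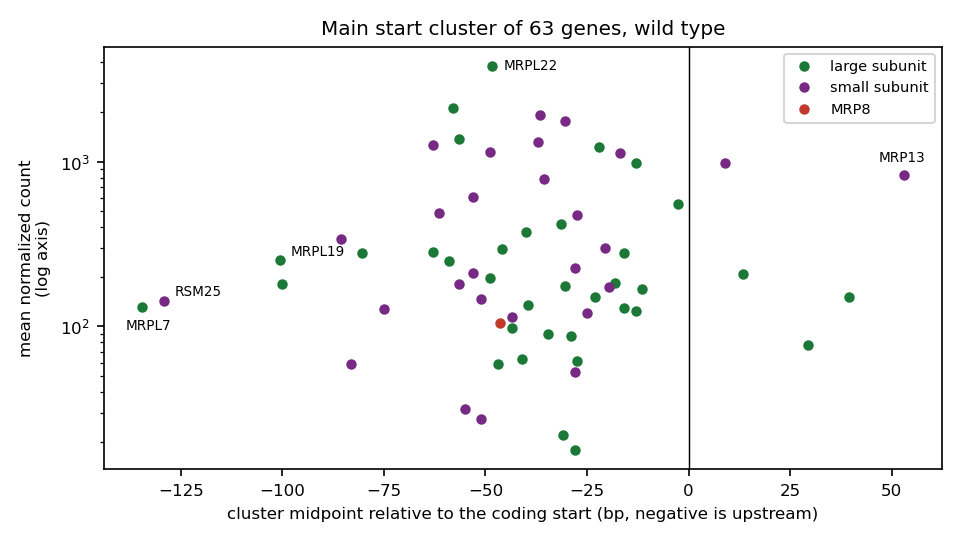
Position and level of the main start cluster of the 63 genes in the wild-type table, with the distance of the cluster midpoint from the coding start in bp (x axis, negative is upstream), the mean normalized count (y axis, log) and the subunit (colour). The points lie between 134.5 bp upstream (MRPL7) and 53 bp inside the coding region (MRP13), and MRPL22 has the highest count.

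Levels differed widely between genes. The mean normalized count over the wild-type libraries had a median of 196 among the members, a minimum of 17.8 and a maximum of 3788. The median over all genes was 244 and that over cytosolic ribosomal protein genes 6519. The highest members were MRPL22 (mean normalized count 3788), MRPL9 (2117) and MRPS35 (1919), and the lowest were MRPL27 (17.8), MRPL32 (21.9) and RSM26 (27.5). At or above 50 mean normalized counts were 59 members, and the 4 below were those 3 and MRPS5 (31.4). RSM28, MRPL19 and MRPS12 had a second cluster each, with a mean of 23.5, 28.4 and 12.7 normalized counts, and none of these was called in any table. Both MRPL19 clusters are assigned by the authors also to the overlapping locus YNL184C. MRPS12 and RSM19, proteins of the small subunit, lie in tandem, with main clusters 541.5 bp apart.

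In wild-type cells, 1 h of DTT left nearly all of these genes uncalled. The labels call this table wild type and name no strain. It was taken to hold all wild-type libraries with Cap-Clip, 2 SWI3 and 2 SNF2 libraries in each arm. On that reading it pools 2 strains, and 4 libraries stand against 4. Of 63 members, 1 was higher (MRP8) and 1 lower (MRPL49), which is 3.17% together, against 33.8% of all clusters tested, 16.5% higher and 17.3% lower. When clusters below 50 mean normalized counts were set aside, the share over all clusters was 38.8%. The median log2 fold change was -0.22 over the members and 0.01 over all clusters, and 45 of 63 members had a negative value. At an unadjusted p under 0.05 the count was 7 of 63 members, against 2176 of 5186 clusters. For 31 of 63 members (49.2%) the 95% interval of the log2 fold change lay within -1 and 1, and the same held for 19.0% of all clusters. For the others a 2-fold change was not excluded at this precision.

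Cytosolic ribosomal protein genes behaved otherwise in the same table. Of 131 such genes 128 fell and none rose, at a median log2 fold change of -1.65. The 95% interval lay above that median in 59 of the 63 mitochondrial members. The sets also differ in level, as given above, and the median SE was 0.35 for the mitochondrial and 0.25 for the cytosolic genes; the part of this in the count of calls was not tested.

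**Figure D2:**
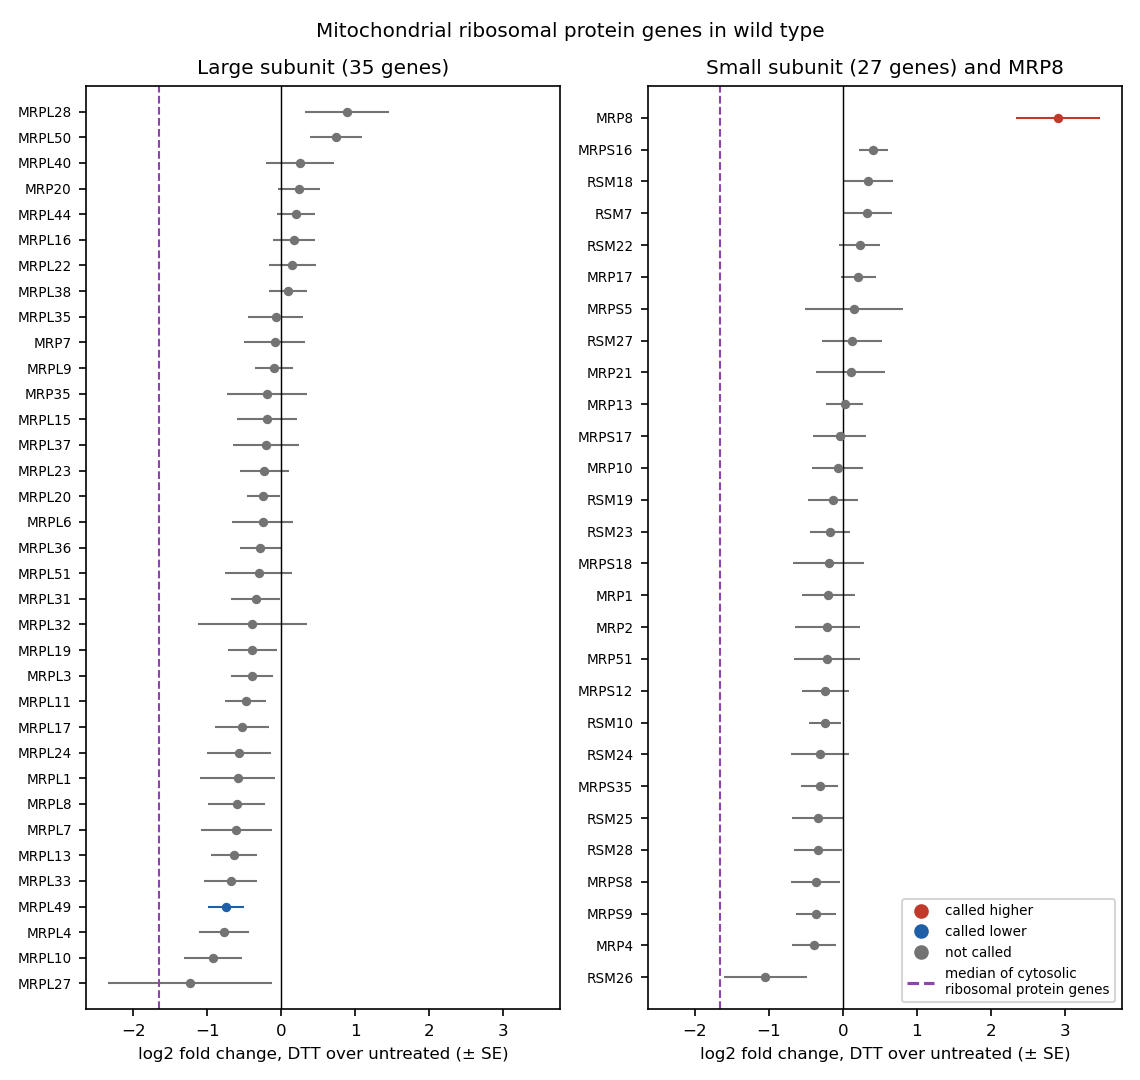
Log2 fold change of DTT over untreated wild type for the 63 genes, with bars of ± SE from the authors' deposited table, large subunit on the left, small subunit and MRP8 on the right. Only MRP8 (2.91) and MRPL49 (-0.75) are coloured as called; the dashed line marks the cytosolic ribosomal protein median of -1.65.

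MRP8 (YKL142W) had a computed mean of 185 normalized counts with DTT and 24.7 untreated. The authors' deposited table gives it a log2 fold change of 2.91 ± 0.57 (adjusted p = 4.4e-06, DESeq2). Without it, 1 of 62 members was called in the wild-type comparison.

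Large-subunit genes had 1 of 35 called, against 33.8% of all clusters. In 27 of 35 the log2 fold change was negative, and the median was -0.28. MRPL49 (bL21m), whose bacterial relative binds the large ribosomal RNA, had a mean of 1019.5 normalized counts with DTT and 1718 untreated. It fell, and the authors' deposited table has it at -0.75 ± 0.24 (log2 fold change) (adjusted p = 0.0083, DESeq2). Around the exit of the peptide tunnel sit MRPL22 (uL22m), MRP20 (uL23m) and MRPL4 (uL29m). MRPL22 had means of 3982 normalized counts with DTT and 3593 untreated, and MRP20 had 319 and 270.2. On the log2 scale the authors' deposited table gives them 0.15 ± 0.32 and 0.24 ± 0.28, neither called. MRPL4 was lower in mean, at 145 normalized counts with DTT and 248 untreated, and with -0.78 ± 0.34 in the authors' deposited table it missed the call (adjusted p = 0.064, DESeq2). These 3 neighbours in the ribosome had values on both sides of 0, none of them called, and differences between them were not tested.

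MRP7 (bL27m), whose bacterial relative reaches towards the peptidyl transferase centre, had 241 normalized counts with DTT and 256 untreated, at -0.09 ± 0.41 (log2) in the authors' deposited table. MRPL11 (uL10m), the base of the stalk where translation factors bind, had 309.8 and 433, at -0.48 ± 0.27 in the authors' deposited table. MRPL32 (bL32m), known to be matured by the m-AAA protease before ribosome assembly, had 18.9 normalized counts with DTT and 24.8 untreated. Its SE of 0.74 in the authors' deposited table is wide, and the 95% interval ran from -1.84 to 1.06. MRPL36 (bL31m) had 166 and 202 normalized counts, at -0.28 ± 0.28 in the authors' deposited table. The widest departures among the uncalled large-subunit genes in the authors' deposited table were MRPL27 (log2 fold change -1.24 ± 1.11), MRPL10 (-0.92 ± 0.39, adjusted p = 0.056) and MRPL28 (0.89 ± 0.57).

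Small-subunit genes had 0 of 27 called by DESeq2, against 33.8% of all clusters. At an unadjusted p under 0.05 there was 1, MRPS16, against 2176 of 5186 clusters. The small-subunit median log2 fold change was -0.19, and 18 of 27 genes were negative. MRPS12 (uS12m), at the decoding centre, had 903 normalized counts with DTT and 1064 untreated, and MRP4 (uS2m) had 1097 and 1435. In the authors' deposited table they were at -0.24 ± 0.32 and -0.39 ± 0.30. MRPS16 (bS16m) had 2016 normalized counts with DTT and 1517 untreated, at 0.41 ± 0.20 in the authors' deposited table (adjusted p = 0.094, DESeq2).

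MRP10 (mS37) is a twin CX9C protein, whose disulphides are formed by the Mia40 pathway of the mitochondrial intermembrane space. It had 221 normalized counts with DTT and 232 untreated, and the 95% interval of its log2 fold change ran from -0.75 to 0.61. RSM22, a methyltransferase-like protein, had 322 and 275, and RSM23 (mS29), the yeast relative of the GTP-binding protein DAP3, had 456 and 515. MRP1 (mS43) and RSM26 (mS42), which resemble superoxide dismutases, were at -0.20 ± 0.35 and -1.05 ± 0.56 in the authors' deposited table, with RSM26 at 18.0 normalized counts with DTT and 37.1 untreated. MRP51 (bS1m), with a genetic role in translation of mitochondrial messages, MRP2 (uS14m) and MRPS5 (uS5m) were at -0.22 ± 0.45, -0.21 ± 0.44 and 0.15 ± 0.66 in the authors' deposited table, none called. By family, 0 of 26 u proteins, 1 of 13 b proteins (MRPL49) and 0 of 22 m proteins were called, against 33.8% of all clusters. The family medians were -0.23, -0.19 and -0.27.

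Other genes of the mitochondrial translation system were counted by role, again in wild type, where 33.8% of all clusters were called. Of 12 further ribosomal protein genes with other kinds of names 2 fell and none rose, at a median log2 fold change of -0.29. These were MNP1 (bL12m, the stalk protein), at -1.11 ± 0.25 in the authors' deposited table, and RTC6 (bL36m), at -0.71 ± 0.24. Of 3 translation factors with a cluster 1 fell, TUF1, the elongation factor Tu, at -1.01 ± 0.23 in the authors' deposited table. Of 7 aminoacyl-tRNA synthetases 1 rose, MSW1 for tryptophan, at 0.75 ± 0.29 in the authors' deposited table. None of 5 translational activators, 8 assembly and insertion factors and 3 transcription factors was called by DESeq2, with 0, 2 and 0 at an unadjusted p under 0.05. Over all clusters 2176 of 5186 had such a p. The lists hold 13, 9, 13, 13, 11 and 4 genes, and those without a cluster were not analysed here. In the mutants these lists had 4 calls in all, each in snf2Q928K. Of all clusters, 6.56% were called in untreated snf2Q928K and 14.5% in snf2Q928K with DTT. In untreated snf2Q928K MNP1 fell, at -1.12 ± 0.30 on the log2 scale of the authors' deposited table (adjusted p = 0.0052, DESeq2). In snf2Q928K with DTT the authors' deposited table has RML2 (uL2m) at -0.75 ± 0.28 and MSW1 at -1.05 ± 0.33, both lower, and MRM1, a methyltransferase of the large ribosomal RNA, higher at 0.93 ± 0.34. In swi3E815X and snf2W935R no gene of these 6 lists was called by DESeq2. At an unadjusted p under 0.05 there was 1 in untreated swi3E815X, 0 in swi3E815X with DTT, and 2 in snf2W935R under each treatment. The counts over all clusters at that p are given with each mutant below.

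In untreated swi3E815X cells none of the 63 members was called by DESeq2, against 1.81% of all clusters. None had an unadjusted p under 0.05, against 498 of 5182 clusters. The median log2 fold change was 0.32, with 52 of 63 members positive, and the median over all clusters was 0.01. The extremes in the authors' deposited table were MRP8 (1.92 ± 1.13), MRPL28 (1.28 ± 0.70) and MRPL7 (-0.65 ± 0.58), none called. MRP8 had 32.4 normalized counts in the mutant and 8.58 in wild type, both low. Cytosolic ribosomal protein genes had a median of -0.02 there, with 59 of 131 positive. The further mitochondrial ribosomal protein genes with other kinds of names had 0.06, with 6 of 12 positive.

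In swi3E815X with DTT again none of the members was called by DESeq2, against 1.39% of all clusters. An unadjusted p under 0.05 was found for 2 of 63 members (MRP8 and MRPL15), against 387 of 5195 clusters. The median was 0.16 with 45 of 63 positive, against 0.02 over all clusters. Cytosolic ribosomal protein genes had a median of 0.27, with 116 of 131 positive. The further mitochondrial ribosomal protein genes had -0.06, with 6 of 12 positive. All 63 log2 fold changes lay between -1 and 1, and for 33 members the 95% interval did too. MRP8 had 90.0 normalized counts in the mutant and 169 in wild type, at -0.91 ± 0.41 in the authors' deposited table. MRPL15 had 1777 and 1174, at 0.60 ± 0.29 in the authors' deposited table (adjusted p = 0.62, DESeq2).

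Untreated snf2W935R cells likewise had no called member by DESeq2, against 2.74% of all clusters called. At an unadjusted p under 0.05 there were 5 of 63 members, against 524 of 5183 clusters. The median was 0.33 with 48 of 63 positive, against -0.01 over all clusters. Cytosolic ribosomal protein genes had a median of 0.21, with 104 of 131 positive. The further mitochondrial ribosomal protein genes with other kinds of names had -0.06, with 3 of 12 positive. MRPL7 had 61.3 normalized counts in the mutant and 195 in wild type, at -1.67 ± 0.55 in the authors' deposited table (adjusted p = 0.072, DESeq2). MRPL10 had 308 and 145, at 1.09 ± 0.43, and MRPL22 had 5471 and 3345, at 0.71 ± 0.33 in the authors' deposited table, neither called.

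With DTT, snf2W935R had no called member by DESeq2, against 5.37% of all clusters called. An unadjusted p under 0.05 was found for 2 of 63 members (MRP8 and RSM7), against 834 of 5193 clusters. The median was -0.10 with 28 of 63 positive, against 0.01 over all clusters. MRP8 had 73.6 normalized counts in the mutant and 248 in wild type, at -1.76 ± 0.59 in the authors' deposited table (adjusted p = 0.055, DESeq2), just short of a call. With p-values adjusted over clusters of at least 50 mean normalized counts it passed (adjusted p = 0.047, DESeq2). Of the cytosolic ribosomal protein genes 26 of 131 rose in this comparison, at a median of 0.60.

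In untreated snf2Q928K cells 2 of 63 members fell and none rose, which is 3.17%, against 6.56% of all clusters called and 3.74% called lower. MRPL7 (uL5m), a protein of the large subunit, had 39.7 normalized counts in the mutant and 225 in wild type. The authors' deposited table has it at -2.50 ± 0.54 on the log2 scale (adjusted p = 0.00021, DESeq2). MRPL49 had 1058 and 2143 normalized counts, at -1.02 ± 0.33 in the authors' deposited table (adjusted p = 0.035, DESeq2). MRPL27 had 5.75 and 44.7 normalized counts and, at -2.96 ± 1.14 in the authors' deposited table, was not called. The median over the members was -0.11, against -0.04 over all clusters.

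In snf2Q928K with DTT 4 of 63 members fell and none rose, or 6.35%, against 14.5% of all clusters called and 7.18% called lower. MRPL7 had 61.9 normalized counts in the mutant and 201 in wild type, at -1.70 ± 0.50 in the authors' deposited table (adjusted p = 0.0084, DESeq2). MRP8 had 97.4 and 275, at -1.50 ± 0.43 in the authors' deposited table. MRPS9 (uS9m), a small-subunit protein, had 814 and 1627, at -0.999 ± 0.302, and MRPL11 had 229 and 449, at -0.97 ± 0.36 (adjusted p = 0.0099 and 0.046, DESeq2) in the authors' deposited table. MRP8 was thus called higher with DTT in wild type and lower in snf2Q928K with DTT than in wild type with DTT. In untreated snf2Q928K MRP8 was at -0.23 ± 0.92 and not called. The difference between its snf2Q928K effects with DTT and untreated was -1.27 ± 1.02 and did not pass (adjusted p = 0.77, z-test of the difference). The median over members was -0.23 with 17 of 63 positive, and the small subunit had 23 of 27 negative and the large subunit 22 of 35. Among cytosolic ribosomal protein genes 73 of 131 rose and none fell, at a median of 0.72.

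The size of these snf2Q928K values depended on which wild-type set they were read against. MRPL7 was lower in the wild-type set of the swi3 tables than in that of the snf2 tables, by a centred log2 ratio of -0.96 untreated and -1.35 with DTT. Set against the wild-type means of the swi3 tables, snf2Q928K had MRPL7 at -1.47 untreated and -0.36 with DTT, MRPL49 at -0.46, MRPS9 at -0.34, MRPL11 at -0.73 and MRP8 at -1.18. All 6 values kept their negative sign. These are levels set across tables that were normalized separately, and they carry no test.

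**Figure D3:**
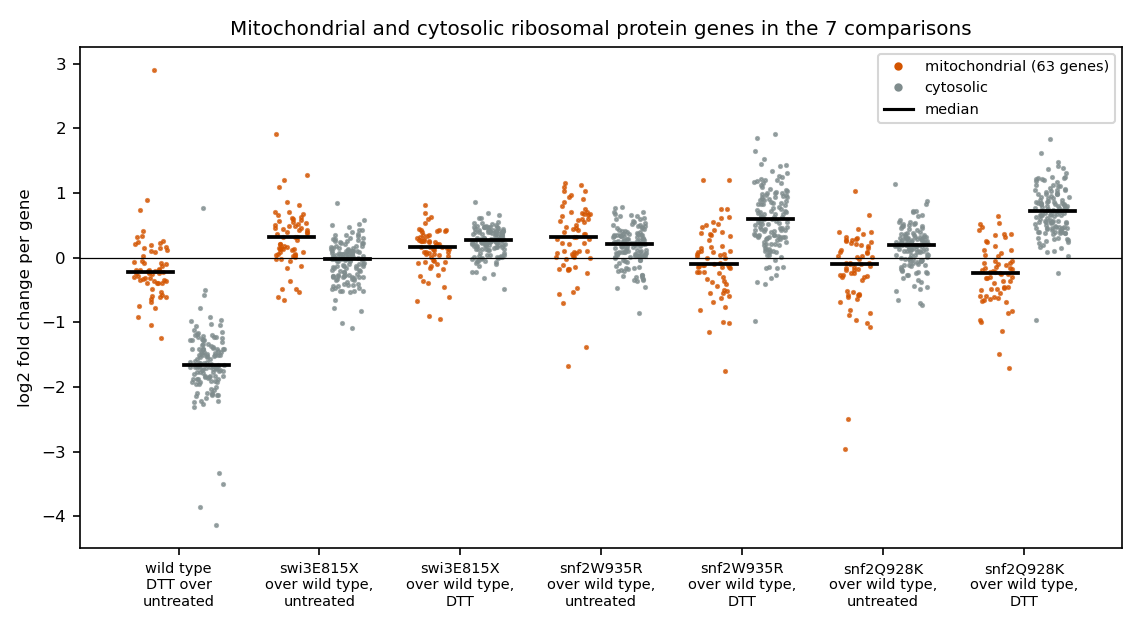
Log2 fold change of each gene in the 7 comparisons, mitochondrial ribosomal protein genes (63 points) left of cytosolic ones (131 points), with bars at the medians. In wild type the medians are -0.22 and -1.65, and in snf2Q928K with DTT they are -0.23 and 0.72.

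MRPL7 shares its upstream region with FMN1, the riboflavin kinase gene, whose start cluster lies 543.5 bp away on the opposite strand. With DTT in wild type FMN1 rose, at 1.34 ± 0.44 on the log2 scale of the authors' deposited table (adjusted p = 0.0098, DESeq2), while MRPL7 was at -0.61 ± 0.48 and was not called. In snf2Q928K with DTT both were called lower, FMN1 at -1.66 ± 0.33 and MRPL7 at -1.70 ± 0.50 in the authors' deposited table. In snf2W935R with DTT FMN1 fell, at -1.42 ± 0.39 on the log2 scale of the authors' deposited table (adjusted p = 0.0081, DESeq2), and MRPL7 was at -0.11 ± 0.52. In untreated snf2Q928K FMN1, at -1.003 ± 0.691 in the authors' deposited table, was not called, and MRPL7 was. Whether the effects on the 2 genes differ was not tested.

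**Figure D4:**
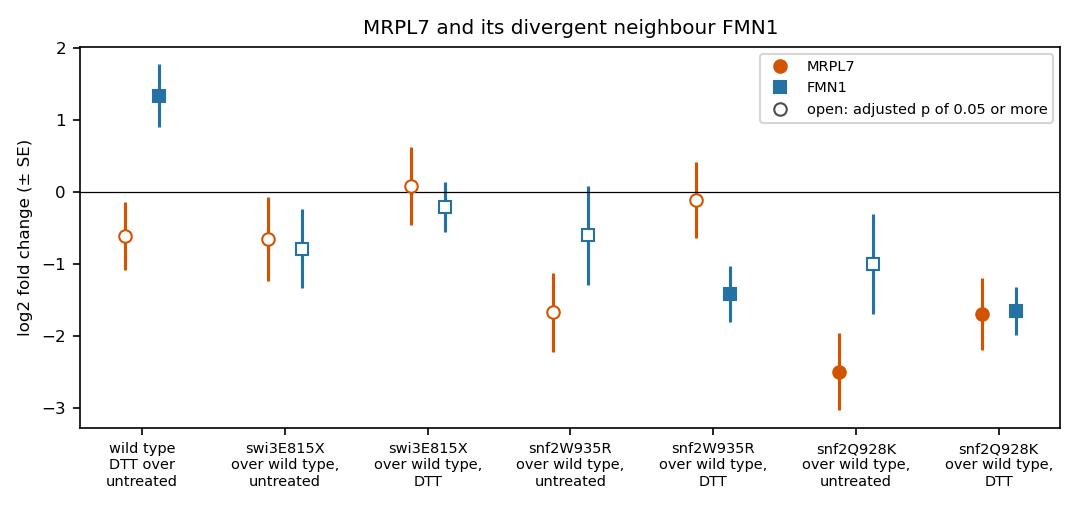
Log2 fold change ± SE of MRPL7 (circles) and its divergent neighbour FMN1 (squares) in the 7 comparisons of the authors' deposited tables; open symbols have an adjusted p of 0.05 or more. MRPL7 is filled in both snf2Q928K comparisons (-2.50 and -1.70), and FMN1 in wild type (1.34), snf2W935R with DTT (-1.42) and snf2Q928K with DTT (-1.66).

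Whether a mutant's effect differed between DTT and untreated was tested as the difference of the log2 fold changes, two-sided against a normal distribution, with Benjamini-Hochberg adjustment over all clusters. No member passed in any mutant, against 0.0386%, 0.869% and 1.41% of all clusters in swi3E815X, snf2W935R and snf2Q928K. At an unadjusted p under 0.05 these mutants had 1, 2 and 2 members in that order. Over all clusters the counts were 198 of 5182, 536 of 5181 and 538 of 5185. The largest such difference by unadjusted p was MRPL16 in snf2Q928K, at -1.27 ± 0.50 (unadjusted p = 0.012, adjusted p = 0.25, z-test of the difference across all clusters). MRP8 in swi3E815X was at -2.82 ± 1.20 (unadjusted p = 0.019), and MRPL7 in snf2W935R at 1.56 ± 0.76 (unadjusted p = 0.040). The median SE of these differences was 0.57, 0.71 and 0.67, so that even a 2-fold difference could not be detected for most members. Larger differences could be missed too, as MRP8 in swi3E815X did not pass at -2.82 ± 1.20 (adjusted p = 0.999, z-test of the difference). The lack of passing members therefore does not exclude differences of 2-fold or more.

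The effects of snf2Q928K and snf2W935R were compared under each treatment in the same way. The shared wild-type arm cancels in the difference, and the SE used is therefore too large. No member passed, against 0.174% of all clusters untreated and 0.289% with DTT. An unadjusted p under 0.05 was found for 1 and 3 members, counts not set against all clusters here. Untreated, snf2Q928K minus snf2W935R had a median of -0.49 over the members and -0.04 over all clusters. With DTT these medians were -0.23 and -0.01. For MRPL7 the difference was -0.83 ± 0.77 untreated and -1.59 ± 0.73 with DTT (unadjusted p = 0.029).

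Counted over all 7 comparisons, 5 of 63 members (7.94%) were called at least once and 58 in none, against 42.3% of all clusters called at least once. MRPL7 was the only member called in both snf2Q928K tables.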

How the data were processed

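The 7 deposited tables compare groups of TL-seq libraries and hold no values per library. The submitters' processing notes name cutadapt, HISAT2 and DESeq2 with the build sacCer3/R64, and no version of these tools. Per the file headers, start sites were grouped into CAGEr consensus clusters. The mean normalized count deposited by the authors is a signal value, counts divided by size factors and averaged over the libraries of a table. The log2 fold change and its SE, and the Wald statistic (a score), were deposited by the authors. The p-value and adjusted p columns were deposited by the authors, and recalculated Benjamini-Hochberg values differed by at most 0.00079.

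Tables were joined by cluster number. Lines with no values were not used. Cluster ends lay inside the R64 reference chromosomes. Arm means assume equal numbers of libraries per arm. Depth per library is unknown, and mean normalized counts summed to 5901941 in the lowest and 7516016 in the highest table. The difference test was checked on data simulated from a normal distribution with the same SE that the test uses. Changes were placed only in clusters with at least 50 mean normalized counts. It therefore did not check whether SEs from so few libraries are right. The members, lists and named genes were chosen with earlier results of these data known. Named members are those called in each comparison (at most 8 per direction), fixed examples of each role, the 3 highest and 3 lowest by count, members with several clusters, and members called in opposite directions; others named were picked after their values were seen, as were the motifs. Alternatives were another threshold, a filter at 50 mean normalized counts, centring, other clusters per gene and leaving out MRP8. The software was python 3.11.15 with scipy 1.17.1, numpy 2.4.6, pandas 2.3.3 and, for plots, matplotlib 3.10.9.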

Additional observations from a re-analysis of the deposited data

How the results depend on the processing

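Counts of called members moved by more than 1.5 times in 6 cases. In wild type with DTT 1 member remained with a minimum change of 2-fold (MRP8) and 1 without MRP8 (MRPL49), in place of 2. In snf2W935R with DTT 1 member (MRP8, lower) was called in place of 0 after adjustment over clusters with at least 50 mean normalized counts, and 1 after centring on the median of those clusters. In untreated snf2Q928K 1 member, MRPL7, was left in place of 2 at an adjusted p under 0.01, and in snf2Q928K with DTT 2 members in place of 4 with a minimum of 2-fold. MRPL10 in wild type passed after adjustment over clusters with at least 50 mean normalized counts (adjusted p = 0.049, DESeq2). The medians of the members moved by less than their median SE under every alternative, and no called member changed sign. For the medians this is a weak check. The SE is that of single genes, and these alternatives changed few members or shifted all values alike. Against the other wild-type set, an alternative chosen after seeing the data, 4 of the 6 snf2Q928K values moved by more than their SE, as the report gives. The precision is limited by 2 libraries per mutant group. Leaving out a replicate could not be done without values per library. No paired analysis was possible because the tables carry no values per replicate number.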
